A study of Homo sapiens with 12 samples.

Results

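The transcripts of 10 plasma membrane amino acid transporter genes linked to the amino acid stress response were examined in human embryonic kidney HEK293 cells. All bead probes annotated to SLC7A11, SLC7A5, SLC3A2, SLC7A1, SLC1A4, SLC1A5, SLC38A1, SLC38A2, SLC6A9 and SLC7A3 were taken, 15 of the 47312 probes on the array and 10 of the 20043 genes that its annotation names. The array carried more than 1 probe for 4 of the genes. Of the 15 probes, 12 probes of 9 genes were above detection on at least 3 of 12 arrays and entered the tests, as did 20909 probes in all. The single SLC7A11 probe and 2 of the 3 SLC6A9 probes did not pass.

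Cells of a pair of isogenic lines were compared, one stably expressing a glucocorticoid receptor that cannot be SUMOylated (GR3KR) and the other the wild-type receptor (wtGR). The groups were GR3KR cells with 5 µM 15d-PGJ2 and 100 nM dexamethasone, GR3KR cells with 100 nM dexamethasone alone, wtGR cells with both agents at the same doses, and wtGR cells with dexamethasone alone, each for 6 h and each with 3 arrays. Every group received dexamethasone, a synthetic glucocorticoid, after growth in steroid-depleted medium, so no value shows cells without it. The compound 15d-PGJ2 is an electrophilic cyclopentenone prostaglandin that reacts with cysteine thiols, and SUMOylation is the attachment of small SUMO proteins to lysines of a target. Whether the 3 replicates came from separate cultures, and whether each line is 1 clone, is not given in the sources used here. The p-values therefore measure the spread between these samples, which may be technical.

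Cells short of amino acids, or under oxidative or endoplasmic reticulum stress, phosphorylate the translation factor eIF2alpha, and the transcription factor ATF4 is then translated more. ATF4 with C/EBP partners binds amino acid response elements near many transporter and amino acid synthesis genes. The SLC3A2 protein is the heavy chain shared by several exchangers: with SLC7A5 it imports leucine and other large neutral amino acids, and with SLC7A11 it exchanges glutamate for cystine, the source of cysteine for glutathione. SLC7A11 is also a known target of NRF2, which electrophiles activate and which binds antioxidant response elements.

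RefSeq promoter windows of GRCh38.p14, which run from 250 bases before to 50 bases after an annotated start, were at hand for 8 of the 10 genes, in 14 windows. They were searched on both strands for TGATGNAA, a core of the amino acid response element that reads TTNCATCA in reverse. A match stood in 5 of the 14 windows, 1 for each of 5 genes, and in 3.62% of all 35116 windows. These 5 genes were all called higher in GR3KR cells with 15d-PGJ2, as were SLC38A2 and SLC6A9, whose windows held no match. In that comparison 45% of all probes were called, and whether the element bears on the calls was not tested. The 5 windows with a match are shown, and the capitals mark it. They lie at chr11:62881449-62881748 on the plus strand, chr13:29595639-29595938 on the minus strand, chr2:64989149-64989448 on the plus strand, chr19:46784765-46785064 on the minus strand and chr12:46266467-46266766 on the minus strand, and each is written 5′ to 3′ along its gene.
SLC3A2 promoter: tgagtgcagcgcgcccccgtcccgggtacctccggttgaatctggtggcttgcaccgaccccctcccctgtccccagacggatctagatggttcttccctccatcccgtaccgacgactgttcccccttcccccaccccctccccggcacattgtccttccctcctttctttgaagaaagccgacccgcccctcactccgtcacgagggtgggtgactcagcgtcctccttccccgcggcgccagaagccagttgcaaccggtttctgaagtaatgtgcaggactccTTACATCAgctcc
SLC7A1 promoter: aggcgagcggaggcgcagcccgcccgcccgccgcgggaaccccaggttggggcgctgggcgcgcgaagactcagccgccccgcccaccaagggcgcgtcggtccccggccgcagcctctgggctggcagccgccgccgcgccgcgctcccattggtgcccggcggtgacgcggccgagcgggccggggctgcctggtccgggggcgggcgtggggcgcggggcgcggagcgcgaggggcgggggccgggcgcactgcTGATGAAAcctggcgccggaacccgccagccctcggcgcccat
SLC1A4 promoter: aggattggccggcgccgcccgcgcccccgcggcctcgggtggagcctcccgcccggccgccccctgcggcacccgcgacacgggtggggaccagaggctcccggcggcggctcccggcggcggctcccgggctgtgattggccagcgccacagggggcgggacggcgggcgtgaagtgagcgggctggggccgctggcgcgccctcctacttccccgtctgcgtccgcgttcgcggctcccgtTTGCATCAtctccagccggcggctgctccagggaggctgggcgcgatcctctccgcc
SLC1A5 promoter: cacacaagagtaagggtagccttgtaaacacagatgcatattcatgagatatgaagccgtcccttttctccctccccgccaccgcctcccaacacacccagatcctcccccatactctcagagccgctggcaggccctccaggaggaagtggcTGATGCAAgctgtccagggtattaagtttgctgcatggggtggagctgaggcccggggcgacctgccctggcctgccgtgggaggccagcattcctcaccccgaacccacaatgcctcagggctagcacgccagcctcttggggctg
SLC38A1 promoter: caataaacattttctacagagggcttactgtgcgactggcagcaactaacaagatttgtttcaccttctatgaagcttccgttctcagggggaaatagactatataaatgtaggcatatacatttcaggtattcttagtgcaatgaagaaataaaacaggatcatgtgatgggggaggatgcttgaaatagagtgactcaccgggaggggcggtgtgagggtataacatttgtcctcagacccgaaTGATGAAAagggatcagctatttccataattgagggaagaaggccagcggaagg
The match began at position 38 from the start in SLC3A2, 8 in SLC7A1, -7 in SLC1A4, -97 in SLC1A5 and -4 in SLC38A1. SLC3A2 and SLC1A4 held it in the reverse reading. The windows of SLC7A5, SLC38A2 and SLC6A9 held no such letters. TGACNNNGC, a core of the antioxidant response element that reads GCNNNGTCA in reverse, stood in 4 of the 14 windows, 1 each for SLC7A5, SLC3A2, SLC7A1 and SLC1A5, and in 13.3% of all windows. A match describes the letters and does not show that a factor binds there.

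The 3 arrays of GR3KR cells with 15d-PGJ2 stood apart from the rest. They had 14207 to 17032 probes above detection, against 17959 to 19950 on the other 9 arrays, and median raw signals of 58.3 to 64.0, against 69.3 to 89.6. Of 8 HEK293 markers, 5 (NEFL, INA, KRT8, VIM and CDH2) were above detection on all 12 arrays, while the 3 probes of PAX2, the kidney developmental factor, were above detection on none. Of 6 fibroblast markers only COL1A1 was above detection on all 12 arrays, and COL1A2 and PDGFRB on none. Of 5 leukocyte markers CD14 was above detection on all 12, and PTPRC, CD3E, ITGAM and LST1 on none. Levels below are normalized log2 intensities of a probe, given for arrays 1, 2 and 3 of a group, and differences are log2 differences from limma over 20909 probes. A probe is called changed at a Benjamini-Hochberg adjusted p below 0.05, and probes are not compared with each other. The members, and the gene lists used below, were chosen with earlier results of these data known. Their counts beside the shares of all probes are therefore descriptions only. In bulk RNA, fewer cells with a transcript and less of it per cell cannot be told apart.

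**Figure D1:**
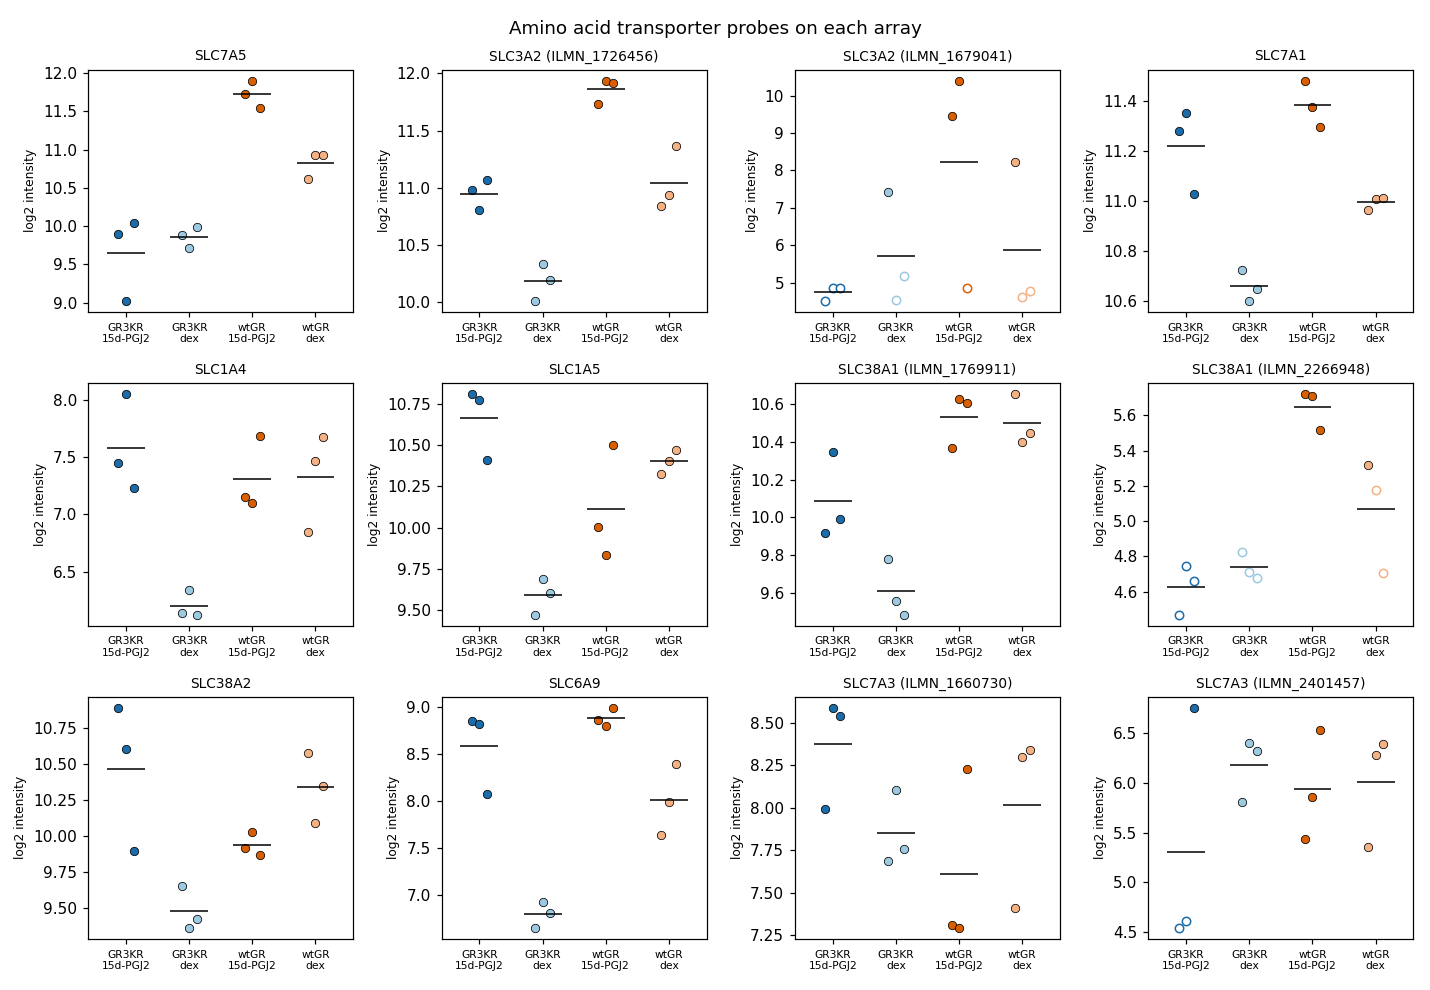
Normalized log2 intensity of the 12 tested transporter probes on each of 12 arrays, by group, with the group mean as a line; open symbols are values at a detection p of 0.01 or more, and each panel has its own axis. SLC1A4, SLC1A5, SLC38A2, SLC6A9, SLC7A1, SLC3A2 ILMN_1726456 and SLC38A1 ILMN_1769911 sit lowest on the 3 arrays of GR3KR cells with dexamethasone alone. SLC7A5 sits highest on the 3 arrays of wtGR cells with 15d-PGJ2.

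In wtGR cells no transporter probe was called changed by 15d-PGJ2. The call rate over all probes was 0.0861% (18 probes), with 0.0622% called higher and 0.0239% lower, and 5 of the 12 member probes had an unadjusted p below 0.05, as did 1582 of all probes. The median difference was 0.21 over the member probes and -0.03 over all probes. In 6 of the 12 the arrays of the groups did not overlap, 5 with 15d-PGJ2 higher and 1 lower, against 18.5% of all probes. Among the 5 higher is SLC38A1 ILMN_2266948, above detection on 3 of 3 wtGR arrays with 15d-PGJ2, 1 of 3 without it and no GR3KR array. That probe passed the detection filter only through wtGR arrays, mostly where it was high. Its place in this count and among the 5 with a low unadjusted p is a description only.

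For SLC7A5, the light chain that carries leucine, the levels were 11.73, 11.90 and 11.55 in wtGR cells with 15d-PGJ2 and 10.61, 10.93 and 10.93 with dexamethasone alone. The groups did not overlap, and the difference was 0.90 (SE 0.25, n = 3 arrays each; adjusted p = 0.394 by limma). The heavy chain SLC3A2, by its probe ILMN_1726456, had 11.74, 11.94 and 11.92 with 15d-PGJ2 and 10.84, 10.94 and 11.37 without it. Those arrays did not overlap either, and the difference of 0.82 (SE 0.18, limma adjusted p = 0.204) had the smallest p among the members. SLC6A9, which takes up glycine with sodium and chloride, had 8.86, 8.80 and 8.99 with 15d-PGJ2 and 7.64, 7.99 and 8.40 without it (difference 0.88, limma adjusted p = 0.394). All 3 arrays with 15d-PGJ2 again lay above all 3 without it.

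SLC7A1, the widely expressed carrier of arginine and lysine, had 11.48, 11.38 and 11.29 with 15d-PGJ2 and 10.97, 11.01 and 11.01 without it, also without overlap (difference 0.39, limma adjusted p = 0.568, and -0.02 with median scaling). SLC38A2, a sodium-coupled carrier of small neutral amino acids of the system A type, was the 1 member whose wtGR arrays were all lower with 15d-PGJ2: 9.92, 10.03 and 9.87, against 10.58, 10.09 and 10.34 without it (difference -0.40, limma adjusted p = 0.761). The arrays overlapped for SLC1A4 and SLC1A5, sodium-dependent exchangers of alanine, serine and cysteine of which SLC1A5 also carries glutamine, with differences of -0.02 and -0.29. Array weights, which let some arrays count for more, called 8 of the 12 probes, 6 higher and 2 lower, where 30% of all probes were called. For wtGR cells with dexamethasone alone the weights of arrays 1, 2 and 3 were 0.40, 5.16 and 0.40. With 15d-PGJ2 they were 3.31, 2.32 and 0.50. The weighted mean with dexamethasone alone thus rests mostly on array 2. The 6 higher ones were SLC7A5, both SLC3A2 probes, SLC7A1, SLC6A9 and SLC38A1 ILMN_2266948. Of these, SLC38A1 ILMN_2266948 and SLC3A2 ILMN_1679041 were above detection on more wtGR arrays with 15d-PGJ2 than without it, so their calls are a description only. The 2 lower ones were SLC1A5 (-0.42) and 1 probe of SLC7A3 (-0.86).

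SLC7A11 stayed near the detection limit. In GR3KR cells its probe read 4.91, 4.57 and 4.95 with 15d-PGJ2 and 4.36, 4.43 and 4.54 with dexamethasone alone, with no array above detection. In wtGR cells it read 5.20, 5.52 and 5.42 with 15d-PGJ2, where 2 of 3 arrays were above detection, and 4.60, 4.81 and 5.06 without it, where 0 of 3 were. When no probe was filtered out, its 15d-PGJ2 difference was 0.37 in GR3KR cells (limma adjusted p = 0.110) and 0.55 in wtGR cells (limma adjusted p = 0.382). The unadjusted p-values were 0.0299 and 0.0036, both from the limma fit across probes. The arrays did not overlap in either line, though in GR3KR cells all of these values were below detection. Among the tested probes the groups did not overlap for 54.3% in GR3KR cells and 18.5% in wtGR cells. A response of the cystine exchanger did not pass the test at this signal. Between the lines under both agents the SLC7A11 difference was -0.57 (limma adjusted p = 0.0204 without the filter), with no fold given since the GR3KR arrays were below detection. Without the filter 22.6% of all 47312 probes were called in that comparison.

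The other transcripts of these pathways were compared through lists, each gene by its brightest tested probe. The counts in wtGR cells are set against 0.0861% of all probes called. In wtGR cells 1 of 20 regulators of the ATF4 response was called higher with 15d-PGJ2, TRIB3, a pseudokinase that ATF4 induces (difference 1.15, SE 0.16, limma adjusted p = 0.0402). Of 20 NRF2 and glutathione genes, 1 was called, HMOX1, which encodes haem oxygenase (2.84, SE 0.18, limma adjusted p = 5.58e-05). None of 12 amino acid synthesis genes and none of 20 other amino acid transporters was called by limma, with 1 and 2 of them at an unadjusted p below 0.05. The gene of smallest p was CTH, an enzyme that makes cysteine, in the first list (0.67) and SLC43A2, a carrier of large neutral amino acids, in the second (0.82). The list medians were 0.36 for the ATF4 regulators, 0.06 for the NRF2 genes, 0.10 for the synthesis genes and -0.15 for the other transporters, where the median of all probes was -0.03.

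In GR3KR cells 7 of the 12 transporter probes, of 7 genes, rose with 15d-PGJ2 and none fell. These were SLC6A9, SLC1A4, SLC1A5, SLC38A2, SLC3A2, SLC7A1 and SLC38A1. Of all probes 45% were called in this comparison and 27.4% were called higher, and the median difference was 0.54 over the members and 0.18 over all probes. The 7 called probes were above detection on all 12 arrays. When only the 12329 such probes were fitted, 49.8% were called, 80.1% of those calls were higher, and the median was 0.40. Of the 9 member probes among them 7 were called, and their median was 0.77. The 7 called probes were also the 7 of 12 whose groups did not overlap, against 54.3% of all probes. This comparison rests on the 3 arrays with few detected probes, and its values without 2 of them stand after the genes.

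SLC3A2 ILMN_1726456 had 10.98, 10.80 and 11.07 in GR3KR cells with 15d-PGJ2 and 10.01, 10.34 and 10.20 with dexamethasone alone. The heavy chain was 1.70-fold higher (difference 0.77, SE 0.18, limma adjusted p = 0.0107). Its partner SLC7A5 had 9.90, 9.02 and 10.04 with 15d-PGJ2 and 9.88, 9.71 and 9.98 without it, overlapping groups with a difference of -0.20 (limma adjusted p = 0.517). The array 2 value of 9.02 stood below the rest, on the array with the fewest detected probes.

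SLC7A1 had 11.28, 11.35 and 11.03 in GR3KR cells with 15d-PGJ2 and 10.73, 10.60 and 10.65 without it, a 1.47-fold rise (difference 0.56, SE 0.14, limma adjusted p = 0.0138). The related cationic carrier SLC7A3, mainly known from brain, has 2 tested probes that disagreed in sign. Probe ILMN_1660730 had 7.99, 8.59 and 8.54 with 15d-PGJ2 and 7.69, 8.11 and 7.76 without it (difference 0.52, limma adjusted p = 0.198). Probe ILMN_2401457 had 4.54, 4.61 and 6.75 with 15d-PGJ2, of which 1 was above detection, and 5.81, 6.40 and 6.32 without it (difference -0.87, limma adjusted p = 0.205). Neither was called, and no direction is given for SLC7A3.

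Both neutral exchangers rose. SLC1A4 had 7.45, 8.05 and 7.23 in GR3KR cells with 15d-PGJ2 and 6.14, 6.34 and 6.13 with dexamethasone alone, 2.59-fold higher (difference 1.37, SE 0.28, limma adjusted p = 0.00747). SLC1A5 had 10.81, 10.77 and 10.41 with 15d-PGJ2 and 9.47, 9.69 and 9.60 without it, 2.11-fold higher (difference 1.08, SE 0.20, limma adjusted p = 0.00653). Neither had overlapping groups.

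The system A carrier SLC38A2 had 10.89, 10.60 and 9.90 in GR3KR cells with 15d-PGJ2 and 9.66, 9.36 and 9.42 without it, 1.97-fold higher (difference 0.98, SE 0.24, limma adjusted p = 0.0123). Its relative SLC38A1, by probe ILMN_1769911, had 9.92, 10.35 and 9.99 with 15d-PGJ2 and 9.78, 9.56 and 9.49 without it, 1.39-fold higher (difference 0.48, SE 0.17, limma adjusted p = 0.0449). Neither carrier had overlapping groups. The other SLC38A1 probe, ILMN_2266948, was below detection on all 6 GR3KR arrays.

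SLC6A9 had the largest difference of the 12 probes. Its probe ILMN_1714445 read 8.86, 8.82 and 8.08 in GR3KR cells with 15d-PGJ2 and 6.65, 6.93 and 6.81 with dexamethasone alone, 3.46-fold higher (difference 1.79, SE 0.25, limma adjusted p = 0.00384). The lowest array with 15d-PGJ2 lay above the highest without it. Of its other probes, ILMN_2252701 was above detection on 1 of 12 arrays, array 1 of GR3KR cells with 15d-PGJ2, and ILMN_1754262 on none.

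Without arrays 1 and 2 of GR3KR cells with 15d-PGJ2, those with the fewest detected probes, none of the 12 probes was called and 38 of 20909 were. The estimates were then 0.86 for SLC3A2, 0.36 for SLC7A1, 1.07 for SLC1A4, 0.78 for SLC1A5, 0.37 for SLC38A1, 0.39 for SLC38A2 and 1.26 for SLC6A9, all above 0. That fit leaves 1 array in the group, which is assumed to vary like the others, and 5 of the 12 probes had an unadjusted p below 0.05. With the number of detected probes as a covariate none of the 12 was called, nor any of the 20909, and 1 of the 12 and 633 of all probes had an unadjusted p below 0.05. The covariate estimates were 0.61 for SLC3A2, 0.37 for SLC7A1, 0.39 for SLC1A4, 0.65 for SLC1A5, 0.32 for SLC38A1, 0.56 for SLC38A2 and 0.85 for SLC6A9. With median scaling SLC1A5 (0.92) and SLC6A9 (1.18) remained called, while SLC1A4 had 0.62 (adjusted p = 0.0516), SLC38A2 0.83, SLC3A2 0.66, SLC7A1 0.51 and SLC38A1 0.26. The covariate and median scaling estimates were all smaller than the reported ones and above 0. Without arrays 1 and 2 the SLC3A2 estimate of 0.86 was larger than the reported 0.77, and the others were smaller. When arrays were left out singly, SLC6A9, SLC1A4, SLC1A5, SLC38A2 and SLC3A2 were called in 12 of 12 fits, SLC7A1 in 11 (adjusted p = 0.0542 without array 2 of GR3KR cells with 15d-PGJ2) and SLC38A1 in 2.

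**Figure D2:**
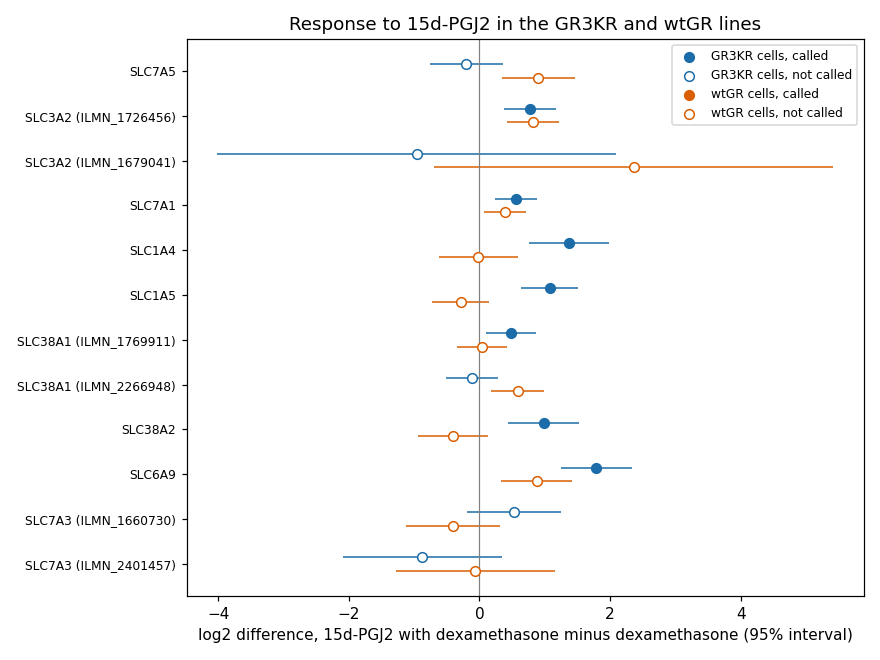
Difference in log2 intensity between 15d-PGJ2 with dexamethasone and dexamethasone alone for 12 transporter probes, in GR3KR cells (blue, upper) and wtGR cells (orange, lower), with 95% intervals from limma; filled symbols are called at an adjusted p below 0.05. In GR3KR cells 7 probes are called, all to the right of 0, and in wtGR cells none is.

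The lists in GR3KR cells are set against 27.4% of all probes called higher and 17.6% lower. Of them, 9 of 20 other amino acid transporters were called higher with 15d-PGJ2 and none lower, led by SLC43A2 (1.40), SLC7A9, a light chain of the cystine and dibasic carrier of kidney (1.32), and SLC1A1, a glutamate carrier (1.26). Of 12 amino acid synthesis genes 5 were called higher and none lower, with MTHFD2, a mitochondrial folate enzyme, at 0.99 and ALDH18A1, of proline synthesis, at 0.82. The serine enzyme PSPH was called at 1.58 by its brightest probe, while its other probe gave -2.02. Of the ATF4 regulators 5 of 20 were called higher and 3 lower, near the shares over all probes. They included JDP2 at 1.23 and EIF2AK3, an eIF2alpha kinase, at -1.22, with 1 of 3 arrays above detection with 15d-PGJ2 and 3 of 3 without it. Of the NRF2 genes 5 of 20 were called higher and 5 lower, with HMOX1 at 1.62 and FTL, the ferritin light chain, at -4.33. ATF3, a stress-induced factor, was called at -2.45 by 1 probe and read -0.02 by another. The medians were 0.59, 0.50, 0.23 and 0.21 in that order of lists, where all probes had 0.18. Among markers, VIM was called at -2.62 (-0.88 by its other probe), KRT8 at 1.14, INA at 1.03 and COL1A1 at 0.68 in the same arrays, and their part in the transporter differences was not tested.

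The difference between the lines in their response was tested directly, as the 15d-PGJ2 difference in GR3KR cells minus that in wtGR cells. It was called for 4 of the 12 probes, 3 higher in GR3KR and 1 lower, and for 23.9% of all probes, 14.8% higher and 9.1% lower. The median was 0.31 over the members and 0.22 over all probes. When only probes above detection on all 12 arrays were fitted, 30.2% were called, 85.2% of those calls were higher, and the median was 0.46. Of the 9 member probes among them 4 were called, and their median was 0.91. SLC1A5 stood at 1.36 (SE 0.28, limma adjusted p = 0.0186), from 1.08 in GR3KR cells and -0.29 in wtGR cells. SLC38A2 stood at 1.38 (SE 0.34, limma adjusted p = 0.0263), from 0.98 and -0.40, and SLC1A4 at 1.39 (SE 0.39, limma adjusted p = 0.0337), from 1.37 and -0.02. The one that was lower was SLC7A5, at -1.10 (SE 0.36, limma adjusted p = 0.0474), from -0.20 in GR3KR cells and 0.90 in wtGR cells.

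SLC3A2 ILMN_1726456 gave 0.77 in GR3KR cells and 0.82 in wtGR cells, a difference of -0.05 with a 95% interval of -0.61 to 0.52. SLC7A1 gave 0.17 with an interval of -0.28 to 0.63. The intervals leave room for gaps of up to those sizes in either direction. SLC6A9, with 1.79 in GR3KR cells and 0.88 in wtGR cells, gave 0.91 (SE 0.35, limma adjusted p = 0.0739). The light chain SLC7A5 was called in this test and its heavy chain was not, and the gap between them was not itself tested. The lists are set against 14.8% of all probes called higher and 9.1% lower. In them, 4 of 20 other transporters were called higher and none lower, led by SLC1A1 at 1.55, SLC7A9 at 1.52 and SLC38A6 at 1.34. Of 12 synthesis genes 1 was called, MTHFD2 at 1.25. Of 20 ATF4 regulators 2 were called higher and 2 lower, with ATF3 at -3.44 and -1.10 by its probes, EIF2AK4, the kinase that senses uncharged tRNA, at 0.95, and JDP2 at 0.90. Of 20 NRF2 genes 1 was called higher and 4 lower, with FTL at -4.89, PGD, of the pentose phosphate pathway, at -1.75 and MAFG at -3.42. For MAFG 1 of 3 GR3KR arrays with 15d-PGJ2 was above detection. Among markers INA was called at 1.21 and CDH2 at 0.84, and their part in the transporter differences was not tested.

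These 4 calls were not stable. None remained without array 1 or 3 of GR3KR cells with dexamethasone alone, array 2 of GR3KR cells with 15d-PGJ2, or array 1 or 2 of wtGR cells with 15d-PGJ2. In those fits 1 to 218 of all 20909 probes were called, against 4997 with all arrays. Without array 1 of GR3KR cells with 15d-PGJ2 or array 3 of wtGR cells with dexamethasone alone 1 member probe was called. Of all probes 7.31% and 6.61% were then called. Without array 2 of either dexamethasone group 2 members were called, against 14.6% of all probes for the GR3KR array and 12.3% for the wtGR array. Without array 1 of wtGR cells with dexamethasone alone 6 members were called, and without array 3 of GR3KR cells with 15d-PGJ2 7 were. Of all probes 30.9% and 52% were called in these fits, against 23.9% with all arrays. SLC1A5 was called in 7 of these 12 fits, SLC38A2 in 5, SLC1A4 in 3 and SLC7A5 in 1. Without arrays 1 and 2 of GR3KR cells with 15d-PGJ2 neither a member nor any of the 20909 probes was called, with 5 members and 4700 probes at an unadjusted p below 0.05, and the estimates were 1.06 for SLC1A5, 0.78 for SLC38A2, 1.08 for SLC1A4 and -0.71 for SLC7A5. With the number of detected probes as a covariate none was called either, with 1 member and 1149 probes at an unadjusted p below 0.05, and the estimates were 0.94, 0.96, 0.41 and -0.50 in the same order.

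Under dexamethasone alone, where neither group contains the arrays that stood apart, 5 of the 12 transporter probes were lower in GR3KR cells than in wtGR cells and none was higher, against 4.71% of all probes called and 3.16% called lower. The called genes were SLC6A9, SLC1A4, SLC38A1, SLC3A2 and SLC1A5. Since the members were chosen with earlier results of these data known, this count against all probes is a description only. The estimate was below 0 for 11 of the 12 probes, with a median of -0.84 over the members and 0.00422 over all probes. The groups did not overlap for 8 of the 12, all with GR3KR lower, against 31.4% of all probes. This comparison and the 15d-PGJ2 comparison within each line share their dexamethasone arrays, so they are not independent of each other.

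SLC6A9 was 2.32-fold lower, with 6.65, 6.93 and 6.81 in GR3KR cells and 7.64, 7.99 and 8.40 in wtGR cells (difference -1.22, SE 0.25, limma adjusted p = 0.0208). SLC1A4 was 2.18-fold lower, at 6.14, 6.34 and 6.13 in GR3KR cells and 6.85, 7.47 and 7.68 in wtGR cells (difference -1.13, SE 0.28, limma adjusted p = 0.0432). SLC1A5 was 1.76-fold lower, at 9.47, 9.69 and 9.60 in GR3KR cells and 10.33, 10.41 and 10.47 in wtGR cells (difference -0.81, SE 0.20, limma adjusted p = 0.0424). In each of these 3 genes every GR3KR array lay below every wtGR array. SLC38A1 ILMN_1769911 was 1.85-fold lower, at 9.78, 9.56 and 9.49 in GR3KR cells and 10.65, 10.40 and 10.44 in wtGR cells (difference -0.89, SE 0.17, limma adjusted p = 0.0168). SLC3A2 ILMN_1726456 was 1.82-fold lower, at 10.01, 10.34 and 10.20 in GR3KR cells and 10.84, 10.94 and 11.37 in wtGR cells (difference -0.86, SE 0.18, limma adjusted p = 0.0233). These 2 carriers also showed no overlap.

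SLC7A5 and SLC38A2 missed the threshold with differences of -0.97 (SE 0.25, limma adjusted p = 0.0574) and -0.86 (SE 0.24, limma adjusted p = 0.0771). Their GR3KR arrays too were all below the wtGR arrays, at 9.88, 9.71 and 9.98 against 10.61, 10.93 and 10.93 for SLC7A5 and at 9.66, 9.36 and 9.42 against 10.58, 10.09 and 10.34 for SLC38A2. SLC7A1 gave -0.34 (limma adjusted p = 0.250), and the probes of SLC7A3 gave -0.16 and 0.17 with overlapping arrays. The arrays of GR3KR cells with 15d-PGJ2 enter this test only through the shared normalization, detection filter and spread. With array 1 or array 3 of them left out singly, SLC7A5 and SLC38A2 joined the 5 genes above. With array 2 of them left out, SLC7A5 joined and SLC1A5 was no longer called (limma adjusted p = 0.0599). Without arrays 1 and 2 of them, the median over the members was -0.80, against -0.84 with all arrays.

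The calls depended on single arrays, although the called probes stayed below 0 in all 12 fits. With array 2 or 3 of GR3KR cells with dexamethasone left out none of the 12 was called. Of all probes 1.88% and 1.45% were then called, against 4.71% with all arrays. With array 1 of that group, or array 2 or 3 of wtGR cells with dexamethasone, left out, 1 member was called. The shares of all probes were 1.63%, 2.24% and 2.73%. Leaving out array 1 of wtGR cells with dexamethasone, or array 1 or 2 of wtGR cells with 15d-PGJ2, gave 3 members. Of all probes 3.18%, 2.92% and 3.18% were then called. Leaving out array 1 or 3 of GR3KR cells with 15d-PGJ2 gave 7 members, with 6.86% and 9.67% of all probes called. SLC38A1 was called in 9 of these 12 fits, SLC3A2 and SLC6A9 in 7, SLC1A4 in 5 and SLC1A5 in 3.

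**Figure D3:**
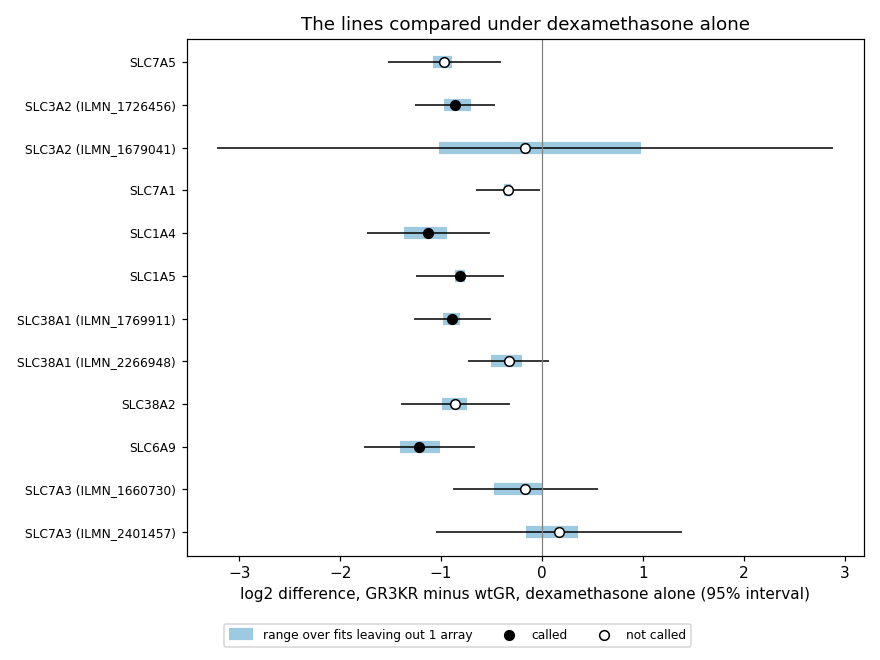
Difference in log2 intensity between GR3KR and wtGR cells under dexamethasone alone for 12 transporter probes, with 95% intervals from limma (black lines) and the range over 12 fits that each leave out 1 array (blue bars). Filled symbols are called at an adjusted p below 0.05; the 5 called probes lie left of 0 over the whole blue range.

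The lists under dexamethasone alone are set against 4.71% of all probes called and 3.16% called lower. When 1 probe per gene was fitted, 8.11% were called, and 31.3% of those calls were higher. Of 20 ATF4 regulators 6 were called lower in GR3KR cells under dexamethasone alone and none higher, led by CHAC1, which degrades glutathione (-1.73, with 1 of 3 GR3KR arrays and 3 of 3 wtGR arrays above detection), DDIT3, a stress factor of the C/EBP family (-1.29), and CEBPB (-1.29). Of 12 amino acid synthesis genes 4 were called lower and none higher. ASNS, asparagine synthetase, was 3.03-fold lower (-1.60, SE 0.16, limma adjusted p = 0.000403, and -2.07 by its other probe), followed by CTH (-1.30) and PSAT1, of serine synthesis (-1.20). Of 20 other transporters 1 was called, SLC1A3, a glutamate carrier, at -0.82. Of 20 NRF2 and glutathione genes none was called by limma, with 2 at an unadjusted p below 0.05, and PIR had the smallest p (-0.84, limma adjusted p = 0.0957). The medians were -0.81 for the ATF4 regulators, -0.39 for the synthesis genes, -0.34 for the other transporters and -0.08 for the NRF2 genes, where all probes had 0.00422. The neuronal filament gene INA, a HEK293 marker, was also lower (-1.78, limma adjusted p = 0.00147), and no leukocyte or fibroblast marker was called.

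With both agents present, SLC7A5 had the largest difference among the called probes. The light chain had 9.90, 9.02 and 10.04 in GR3KR cells and 11.73, 11.90 and 11.55 in wtGR cells, 4.20-fold lower in GR3KR (difference -2.07, SE 0.25, limma adjusted p = 0.000444). All 3 GR3KR arrays lay more than 1 log2 unit below all 3 wtGR arrays. Of the 12 probes 3 were called lower and 1 higher, against 51% of all probes called, 29.7% higher and 21.2% lower, and the median was -0.37 over the members and 0.12 over all probes. The groups did not overlap for 4 of the 12, all with GR3KR lower, against 55% of all probes.

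SLC3A2 ILMN_1726456 had 10.98, 10.80 and 11.07 in GR3KR cells and 11.74, 11.94 and 11.92 in wtGR cells, 1.88-fold lower (difference -0.91, SE 0.18, limma adjusted p = 0.00313). The dim SLC38A1 probe ILMN_2266948 read 4.47, 4.74 and 4.66 in GR3KR cells, all below detection, and 5.72, 5.71 and 5.52 in wtGR cells, all above it (difference -1.02, limma adjusted p = 0.00201, no fold given). That probe passed the detection filter only through wtGR arrays, where it was high, so its place among the 3 lower calls and the 4 probes without overlap is a description only. Its brighter probe ILMN_1769911 had a difference of -0.45 without overlap (limma adjusted p = 0.0513). SLC1A5 was the member called higher, at 10.81, 10.77 and 10.41 in GR3KR cells and 10.01, 9.83 and 10.50 in wtGR cells (difference 0.55, SE 0.20, limma adjusted p = 0.0380), but the arrays overlapped and the call ended with median scaling (0.49, adjusted p = 0.139) and with cyclic loess (0.46, adjusted p = 0.0568). SLC1A4 (0.26), SLC38A2 (0.52), SLC6A9 (-0.30), SLC7A1 (-0.16) and SLC7A3 (0.76 and -0.64 by its probes) were not called. With median scaling SLC6A9 (-0.78, limma adjusted p = 0.0181) and SLC38A1 ILMN_1769911 (-0.57, limma adjusted p = 0.0215) were called lower, and the uncalled SLC1A4 estimate was -0.56.

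SLC7A5 and SLC3A2 ILMN_1726456 were called in 12 of 12 fits that left out 1 array, and SLC1A5 in 5. Without arrays 1 and 2 of GR3KR cells with 15d-PGJ2, SLC7A5 was called (-1.65, limma adjusted p = 0.00578), SLC3A2 had -0.79 (limma adjusted p = 0.0611) and SLC1A5 0.28. With the number of detected probes as a covariate none of the 12 was called, with 4 at an unadjusted p below 0.05, and 47 of all probes were called. The estimates were then -1.36 for SLC7A5, -1.10 for SLC3A2 and 0.05 for SLC1A5. In the lists, set against 51% of all probes called, 29.7% higher and 21.2% lower, 12 of 20 ATF4 regulators were called lower and 1 higher, with ATF3 at -4.40 (-1.37 by its other probe), EIF4EBP1, a repressor of translation initiation, at -2.38 and DDIT3 at -2.20. Of 12 synthesis genes 5 were called lower and 2 higher, with CTH at -1.31, ASNS at -0.96 and ALDH18A1 at 1.07. Of 20 other transporters 7 were called higher and 1 lower, led by SLC38A9, a lysosomal arginine sensor, at 1.54, SLC1A1 at 1.26 and SLC36A1, a lysosomal carrier of small amino acids, at 1.17. Of 20 NRF2 genes 3 were called higher and 6 lower, with FTL at -4.83, MAFG at -3.52, with 1 of 3 GR3KR arrays above detection, and GSS, glutathione synthetase, at -1.62. The medians were -1.33, 0.22, 0.40 and -0.11 in that order, where all probes had 0.12. The markers VIM (-2.26, and -0.45 by its other probe), CDH2 (1.35) and KRT8 (0.98) were called too, and their part in the transporter differences was not tested.

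SLC3A2 was read by 2 tested probes that behaved differently. ILMN_1679041 was above detection on 4 of 12 arrays: array 1 of GR3KR cells with dexamethasone alone (7.41), arrays 1 and 2 of wtGR cells with 15d-PGJ2 (9.45 and 10.40) and array 1 of wtGR cells with dexamethasone alone (8.24). On the remaining 8 arrays it read 4.51 to 5.17, while ILMN_1726456 read between 10.0 and 11.9 on all 12. It was called in no comparison. Under both agents 0 of 3 GR3KR arrays and 2 of 3 wtGR arrays were above detection, and the arrays of the groups overlapped (limma adjusted p = 0.0552), so no fold is given. SLC7A5 has a near copy, the pseudogene SLC7A5P2, to which 3 probes are annotated: 1 was above detection on all 12 arrays at 14.2 to 14.4, with differences between -0.13 and 0.10 in the pairwise comparisons, and the other 2 were above detection on none. That probe did not show the SLC7A5 differences, and whether its transcripts reach the SLC7A5 probe was not tested.

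**Figure D4:**
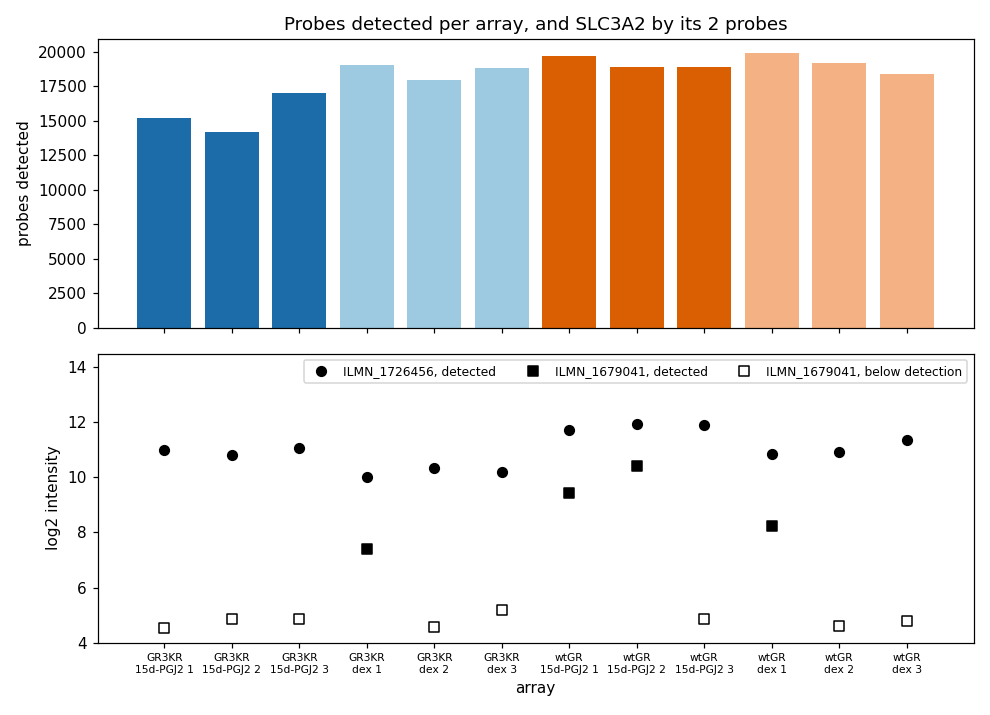
Upper panel, number of probes above detection (p below 0.01) on each of 12 arrays; lower panel, normalized log2 intensity of the 2 SLC3A2 probes on the same arrays, with open symbols below detection. The 3 arrays of GR3KR cells with 15d-PGJ2 have the fewest detected probes, and ILMN_1679041 is above detection on 4 arrays while ILMN_1726456 is above it on all 12.

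Over the 12 arrays, the probes of other genes whose levels were most like those of SLC3A2 ILMN_1726456 were TRIB3 (Pearson r = 0.976), INSM1 (0.973) and TRMT1 (0.971). For SLC7A5 they were DDIT4 (0.978), IER3 (0.978) and WDR18 (0.975). SLC7A11 had no tested probe to compare. These values describe a search over all tested probes with 1 gene symbol, across 4 groups whose means differ, and the arrays share normalization and differ in the number of detected probes. TRIB3 and DDIT4 were also on the ATF4 list.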

How the data were processed

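The deposited bead table gives a raw intensity per probe and array, with no normalization, per the file headers, and beside it a detection p-value per the file headers. A second deposited table holds log2 values; the submitters' processing notes name lumi for it, and its steps are not given in the sources used here. Its columns correlated at 0.984 to 0.998 with the log2 raw signals and had medians of 6.93 to 6.98; scale and direction follow from this, centring of arrays is unstated.

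Background correction, quantile normalization and log2 transformation used neqc (offset 16), which inferred the background from the detection p-values. Probes with detection p below 0.01 on at least 3 of 12 arrays were kept (20909), fitted with limma 3.58.1 in R 4.3.3 (4 group means, 12 arrays, 8 residual degrees of freedom), and adjusted over all kept probes by Benjamini-Hochberg; the fit was tested on simulated data. Symbols come from the platform annotation: 30107 probes have 1, 8 several, and 17197 none. Arrays limit precision by their number; 66 array pairs were compared and none was identical. Replicate numbers were not treated as pairs, since the labels state no pairing. Deviations of same-numbered arrays correlated between -0.75 and 0.75 (18 pairs, 6 over 0.1). Those of other-numbered arrays correlated between -0.83 and 0.84 (36 pairs, 10 over 0.1), and these ranges cannot exclude pairing.

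The members and gene lists were chosen with earlier results of these data known. All member probes are named; of each list, up to 3 called genes with the largest difference in a comparison, or the 1 of smallest p; and the 3 probes most correlated with SLC3A2 and SLC7A5. Promoter sequences are from RefSeq, GRCh38.p14; 2 genes had none to hand. Other normalizations, offsets, filters, the deposited log2 table, 1 probe per gene, array weights, omitted arrays, a detection covariate and a replicate block were tried.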

Additional observations from a re-analysis of the deposited data

Results flagged for a closer look

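The response to 15d-PGJ2 differed between the lines, by the test of the difference itself (GR3KR minus wtGR), for SLC7A5 (-1.10), SLC1A4 (1.39), SLC1A5 (1.36) and SLC38A2 (1.38), on the log2 scale. Each rests on the 3 GR3KR arrays with few detected probes, and the estimates without arrays 1 and 2 of them are given above. None was called with the number of detected probes as a covariate. The calls also depended on single arrays of other groups. When arrays were left out singly, SLC1A5 was called in 7 of 12 fits, SLC38A2 in 5, SLC1A4 in 3 and SLC7A5 in 1.

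Among probes that did not enter the fit, the SLC7A11 probe was above detection on 2 of 3 arrays of wtGR cells with 15d-PGJ2 and on 0 of 3 with dexamethasone alone. The SLC6A9 probe ILMN_2252701 was above detection on 1 of 3 arrays of GR3KR cells with 15d-PGJ2 and on 0 of 3 with dexamethasone alone. No group had the 4 or more samples that a test for an outlying array needs.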

How the results depend on the processing

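The called transporter probes kept the sign of their difference under every alternative run, while the number called did not hold. Leaving out 1 array at a time gave 5 to 8 called of 12 for 15d-PGJ2 in GR3KR cells, 0 to 0 in wtGR cells, 0 to 7 for the difference between the lines, 0 to 7 between the lines under dexamethasone alone and 3 to 6 under both agents. In GR3KR cells the 7 called probes became 2 with median scaling (SLC1A5 and SLC6A9), 4 when only the groups compared entered the fit, 0 without arrays 1 and 2 of GR3KR cells with 15d-PGJ2, and 0 with the number of detected probes as a covariate. The 4 called for the difference became 2 with median scaling, 1 with cyclic loess, 2 with no detection filter, 10 with array weights, and 0 in each of the last pair of settings. Between the lines under both agents the 4 became 7 with the deposited log2 table, 9 with array weights, 2 without those arrays and 0 with the covariate. Under dexamethasone alone the 5 became 9 with array weights, and in wtGR cells the 0 became 8. The cause was not tested, except that fewer arrays or fewer residual degrees of freedom follow from leaving arrays out or adding a covariate.

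With the replicate block the counts were 6, 0, 3, 3 and 5 in the same order of comparisons, against 7, 0, 4, 5 and 4. The labels do not state that arrays of the same number are pairs. Array weights were estimated gene by gene, a setting chosen after seeing the data because the usual estimate did not converge. They ran from 0.11 on array 3 of GR3KR cells with 15d-PGJ2 to 6.07 on array 3 of GR3KR cells with dexamethasone alone. With these weights 6266 to 15017 of all probes were called. Over all settings and single omissions, all-probe counts ran from 0 to 14106 in GR3KR cells, 5 to 6266 in wtGR cells, 0 to 14097 for the difference, 303 to 7407 under dexamethasone alone and 47 to 15017 under both agents. Median scaling put the median of all probes at -0.17 in GR3KR cells, -0.30 in wtGR cells, 0.11 for the difference, -0.25 under dexamethasone alone and -0.27 under both agents. The share of calls that were higher was then 16.6% (60.8% as reported), 29.2% (72.2%), 52.8% (61.9%), 7.29% (33%) and 30.3% (58.4%) in that order. With cyclic loess it was 46.9% in GR3KR cells, 42.2% for the difference and 47.5% under both agents. Under median scaling the members' own medians were 0.38 in GR3KR cells and -1.15 between the lines under dexamethasone alone. A BeadChip block was not run, since the column headers name no chip. Of the alternatives for single probes, 1191 kept their side of the threshold, 135 lost a call and 72 gained one. Low signal limits SLC7A11, the dim probes of SLC3A2, SLC38A1 and SLC7A3, and 2 SLC6A9 probes.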
